A study of Mus musculus with 10 samples.

Results

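The transcripts of 5 Wnt pathway genes, Sfrp1, Lgr5, Wnt10a, Wnt4 and Lef1, were followed through the layers of the mouse sweat gland and the epidermis around its opening. They were read from the probe sets annotated to one of these symbols alone, which gave 8 of the 22690 probe sets on the array, 4 of them for Sfrp1 and 1 for each other gene. The 5 genes are among 12393 with a symbol of their own, and 4 of the 5 passed a filter on low signals and were tested, with Lef1 the exception. Flow cytometry of paw pads had purified the 5 populations: gland myoepithelial, duct basal, gland luminal and duct suprabasal cells and palmoplantar epidermis. All mice were CD1 females, wild type, and the labels name no transgene or treatment. Every population has 2 arrays, numbered in the labels as biological replicates, and the labels do not give the sorting markers, the ages or the number of animals per array.

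Wnt proteins are secreted lipid-modified ligands that bind Frizzled receptors with the co-receptors Lrp5 and Lrp6. In the canonical branch this stabilises beta-catenin, which then acts in the nucleus with DNA-binding factors of the Lef and Tcf family. The signal is raised by R-spondins, which act through Lgr receptors, and lowered by secreted binders such as the Sfrp proteins. In skin, Wnt signalling is known for starting the placodes from which hair follicles and sweat glands grow, and loss of WNT10A in people impairs teeth, hair and sweating. A sweat gland has a secretory coil, with contractile myoepithelial cells around secretory luminal cells, and a straight duct with a basal and a suprabasal layer.

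The values are linear signal intensities, and the filter kept 9320 genes that lay above the 40th percentile of an array on at least 2 arrays. That percentile was a signal between 33.5 and 60.3, lowest on the epidermis arrays. Most labels were matched by marker levels. Against luminal cells, the myoepithelium had more of each of 6 myoepithelial markers. The secretory markers Krt18 and Aqp5 were highest in luminal cells. Best2, a channel of secretory cells, read 1726 and 2435 in luminal cells, against 5147 and 3076 in duct suprabasal cells. None of the 6 secretory markers differed past the threshold between luminal and duct suprabasal cells. In duct suprabasal cells Krt18 read 9821 and 4751, and Aqp5 7265 and 4071. Krt77, a keratin of the sweat duct, reached 147 and 16.6 in duct suprabasal cells. There the duct markers Scnn1b (538.5 and 391.0) and Scnn1g (902.5 and 680.2) exceeded duct basal cells (at most 74.7 and 120.6). Luminal ranges overlapped these, with Scnn1b at 419.2 and 479.1 and Scnn1g at 494.7 and 746.5. Krt6a, Krt10 and Krt1, on the same list, were highest in epidermis, so the duct suprabasal label rests on weak markers. All 4 epidermal differentiation markers tested were higher in epidermis than in each sweat population, while Ivl, a late epidermal gene, did not pass the filter. Myoepithelial array 1 stood apart from array 2 in some luminal markers: Krt18 read 3744 and 444.1 on the 2 arrays, Krt19 2427 and 255.2, and Aqp5 3693 and 786.0. Best2 read 240.2 and 9.9, but Krt8 was similar (7192 and 6302) and Slc12a2 was lower on array 1 (23444 and 38537). Some markers of other cell types moved with a population. The summed signal of 6 fibroblast markers was 16256 and 86062 on the duct suprabasal arrays, 12865 and 16289 in the myoepithelium, 23954 and 20172 in duct basal cells and at most 6151 in luminal cells and epidermis, and that of 6 endothelial markers was 2539 and 13718 against at most 615. Dcn gave most of the fibroblast sum in myoepithelial (11955 and 15302.5) and duct basal cells (22039 and 18361). Each other fibroblast marker read at most 753.3 there, while Col3a1 and Lum reached 26876 and 8613 on duct suprabasal array 2. The sum of 7 immune markers was 3938 and 5783 in myoepithelial cells and at most 1264 elsewhere, with the T cell marker Cd3e near background everywhere. Sums of 4 pericyte markers reached 2220 on duct suprabasal array 2 and were 1153 and 1144 in myoepithelial, 1114 and 869.8 in duct basal and 160.5 and 372.3 in luminal cells, those of 4 melanocyte markers stayed at or below 878, and the 2 Merkel cell markers measured did not pass the filter. Of 3 Schwann cell markers, Sox10 and Pmp22 were highest in both gland populations, with Pmp22 also at 2632 and 4072 in duct suprabasal cells, while Mbp was lower in myoepithelial cells (240.6 and 178.5) than in luminal and both duct populations (374.4 to 1095). In these bulk samples, fewer cells of a type and less RNA per cell cannot be told apart.

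Sfrp1 encodes a secreted protein that binds Wnt ligands and Frizzled receptors, and its transcript was highest in the myoepithelium. The brightest of its probe sets, 1448395_at, read 11930 and 14911 in myoepithelial cells, 1492 and 1241 in duct basal cells, 60.1 and 144.6 in luminal cells, 197.7 and 488.7 in duct suprabasal cells, and 60.7 and 99.2 in epidermis. The myoepithelial arrays stood clear of all others, the duct basal arrays came next without overlap, and the luminal and epidermal ranges overlapped. The means were 13420 ± 2108, 1367 ± 178, 102 ± 59.8, 343 ± 206 and 80.0 ± 27.2 in the same order (SD, n = 2 each). Neighbours in the order of the means, from myoepithelial through duct basal, duct suprabasal and luminal cells to epidermis, differed past the threshold except luminal cells and epidermis (log2 difference 0.24, adjusted p = 0.698, limma).

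The other 3 probe sets of Sfrp1 also put the myoepithelium at the top and the duct basal layer second. Probe set 1438620_x_at read 2622 and 4078 in myoepithelial cells, 895.2 and 527.3 in duct basal cells, 136.3 and 244.8 in luminal cells, 179.1 and 227.6 in duct suprabasal cells, and 133.0 and 142.0 in epidermis. Probe set 1416594_at read 1141 and 1184 in myoepithelial cells and 48.9 and 146.5 in duct basal cells, and between 3.3 and 79.4 on the 6 other arrays. Probe set 1460187_at read 1095 and 864.0 in myoepithelial cells, 78.4 and 78.8 in duct basal cells and at most 18.8 on the 6 others. With 1416594_at the duct basal and duct suprabasal ranges overlapped, while with the other 3 probe sets they did not. The order below the duct basal layer was not the same for all 4: in the fit over all probe sets, luminal cells minus duct suprabasal cells was −1.61 for 1448395_at, −0.13 for 1438620_x_at, −0.19 for 1460187_at and 0.59 for 1416594_at, and none passed.

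**Figure D1:**
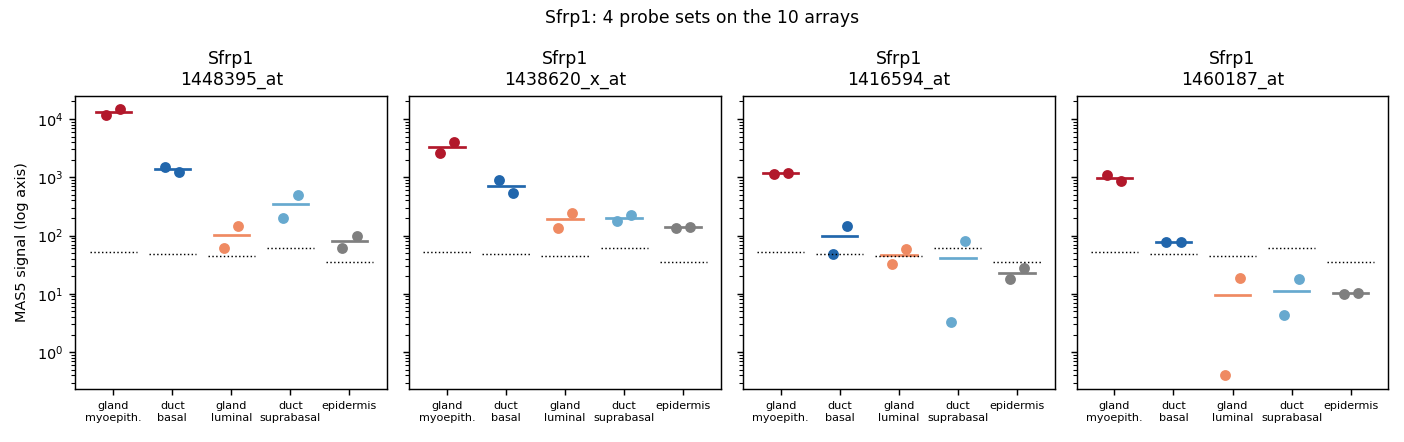
Signal of the 4 Sfrp1 probe sets on a log axis, with each array as a point, each population mean as a coloured bar and the mean 40th percentile of the 2 arrays as a dotted line. Myoepithelial cells are highest and duct basal cells second on every probe set, and the 3 populations to their right change order between probe sets.

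Lgr5 encodes a receptor for R-spondins that marks stem cells of the intestine and the hair follicle, and it too was highest in the myoepithelium. Its probe set, 1450988_at, read 1234 and 997.3 in myoepithelial cells, 213.6 and 248.8 in duct basal cells, 18.2 and 35.5 in luminal cells, 24.5 and 35.8 in duct suprabasal cells, and 26.8 and 22.1 in epidermis. Both outer layers stood above all 6 other arrays, and the myoepithelial arrays above the duct basal ones. The other 6 arrays overlapped and lay below the 40th percentile of their array, so that the size of any difference from them depends on the constant of 12 added before log2. Means were 1116 ± 167 in myoepithelial cells, 231 ± 24.9 in duct basal cells, 26.9 ± 12.2 in luminal cells, 30.2 ± 7.99 in duct suprabasal cells and 24.5 ± 3.32 in epidermis (SD, n = 2 each). Among the lower 3 no pair passed the threshold.

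Wnt10a encodes a canonical Wnt ligand of ectodermal organs, and it was highest in the basal layer of the duct. Its probe set, 1460657_at, read 223.1 and 256.5 in myoepithelial cells, 811.1 and 814.3 in duct basal cells, 19.9 and 3.1 in luminal cells, 92.6 and 222.3 in duct suprabasal cells, and 300.5 and 290.4 in epidermis. The duct basal arrays were above and the luminal arrays below all others, and both luminal arrays lay under the 40th percentile. Means were 239.8 ± 23.6, 812.7 ± 2.26, 11.5 ± 11.9, 157 ± 91.7 and 295 ± 7.14 in that order (SD, n = 2 each). Duct basal cells differed from epidermis, the next in order, and duct suprabasal from luminal cells. The 3 populations between them did not differ from their neighbours past the threshold: myoepithelial cells minus epidermis was −0.29 (adjusted p = 0.601, limma) and myoepithelial minus duct suprabasal cells 0.68 (adjusted p = 0.326, limma), with a range of 0.10 to 1.26 without single arrays.

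Wnt4 encodes a ligand with roles in kidney, gonad and mammary epithelium, and here it was highest in the epidermis. Its probe set, 1450782_at, read 611.4 and 729.8 in myoepithelial cells, 485.4 and 333.0 in duct basal cells, 70.1 and 34.6 in luminal cells, 163.3 and 143.7 in duct suprabasal cells, and 2302 and 2267 in epidermis. No population overlapped another. Means were 671 ± 83.7, 409 ± 108, 52.4 ± 25.1, 154 ± 13.9 and 2284 ± 24.7 in the same order (SD, n = 2 each). Of neighbours in the order from epidermis through myoepithelial, duct basal and duct suprabasal to luminal cells, only myoepithelial and duct basal cells did not differ past the threshold (0.72, SE 0.30, adjusted p = 0.120, limma).

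Lef1 encodes one of the DNA-binding partners of beta-catenin and is known from the placodes and the hair shaft. Its probe set, 1421299_a_at, read 5.5 and 30.2 in myoepithelial cells, 36.0 and 16.3 in duct basal cells, 0.7 and 24.7 in luminal cells, 13.5 and 35.3 in duct suprabasal cells, and 14.5 and 22.1 in epidermis. Every value was below the 40th percentile of its array and all 5 populations overlapped, so no level can be ordered. Its related factors Tcf7l1 and Tcf7l2 were measured above the filter and are described with the comparisons.

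**Figure D2:**
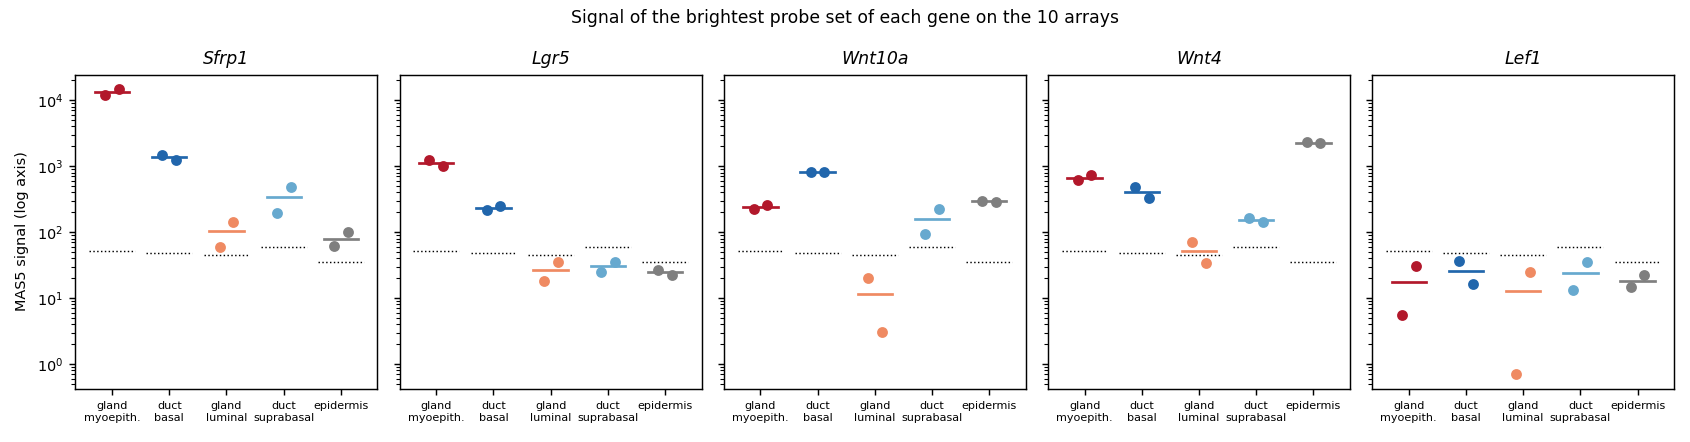
Signal of the brightest probe set of each gene on a log axis, with each array as a point, each population mean as a coloured bar and the mean 40th percentile of the 2 arrays as a dotted line. Sfrp1 and Lgr5 peak in myoepithelial cells, Wnt10a in duct basal cells and Wnt4 in epidermis, and Lef1 lies under the dotted line throughout.

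Upstream sequence was at hand for Wnt4 and Lef1, and it is shown since Lef and Tcf factors bind a known short motif. The 250 bases before the start were searched on both strands for the motif CTTTGNN, where each N is A or T, in RefSeq windows of build GRCm38.p6. The window of Wnt4, chr4:137277385-137277634 on the plus strand, held no match and had 85.2% G and C, against a median of 52.4% over 32851 windows. Lef1 has 4 start sites in the table, and the window of 1 of them, chr3:131156044-131156293 on the plus strand, held a match, which is in capitals and lies on the other strand, 147 bases before the start. Of all windows of this length 14.8% held at least 1 match, and a match in letters is not evidence of binding.
Wnt4: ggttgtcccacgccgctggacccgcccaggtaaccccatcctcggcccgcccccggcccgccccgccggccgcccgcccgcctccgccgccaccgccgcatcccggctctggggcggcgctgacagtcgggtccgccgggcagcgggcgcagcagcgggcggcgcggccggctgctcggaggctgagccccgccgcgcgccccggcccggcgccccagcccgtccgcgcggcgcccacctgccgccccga
Lef1: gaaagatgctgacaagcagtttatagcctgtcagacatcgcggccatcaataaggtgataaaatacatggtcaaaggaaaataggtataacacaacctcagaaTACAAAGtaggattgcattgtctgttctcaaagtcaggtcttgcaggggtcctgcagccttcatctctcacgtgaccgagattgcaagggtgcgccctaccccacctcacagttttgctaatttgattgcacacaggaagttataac

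All 4 genes tested differed among the 5 populations in the F test of limma, as did 65.7% of all genes tested, with adjusted p = 1.58e-05 for Sfrp1, 1.43e-05 for Lgr5, 0.000121 for Wnt10a and 1.50e-05 for Wnt4. To place them in their pathway, 96 Wnt pathway genes were listed by role. Of these 88 had a probe set and 62 passed the filter, including the 4 members. The transcript of 25 of the 62 was highest on average in myoepithelial cells (40.3%), of 15 in duct basal cells (24.2%), of 8 in luminal cells, and of 7 each in duct suprabasal cells and epidermis. Over all genes tested the shares were 24.2% for myoepithelial and 17.5% for duct basal cells. Of 19 Wnt ligands 7 passed the filter, and of 8 genes on the inhibitor list that passed, Sfrp1, Sostdc1 and Dkk3 were highest in the myoepithelium, while Notum, a secreted enzyme that removes the lipid of Wnt, and Apcdd1, a membrane inhibitor, were highest in duct basal cells. Sostdc1 did not differ past the threshold between myoepithelial and duct basal cells.

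**Figure D3:**
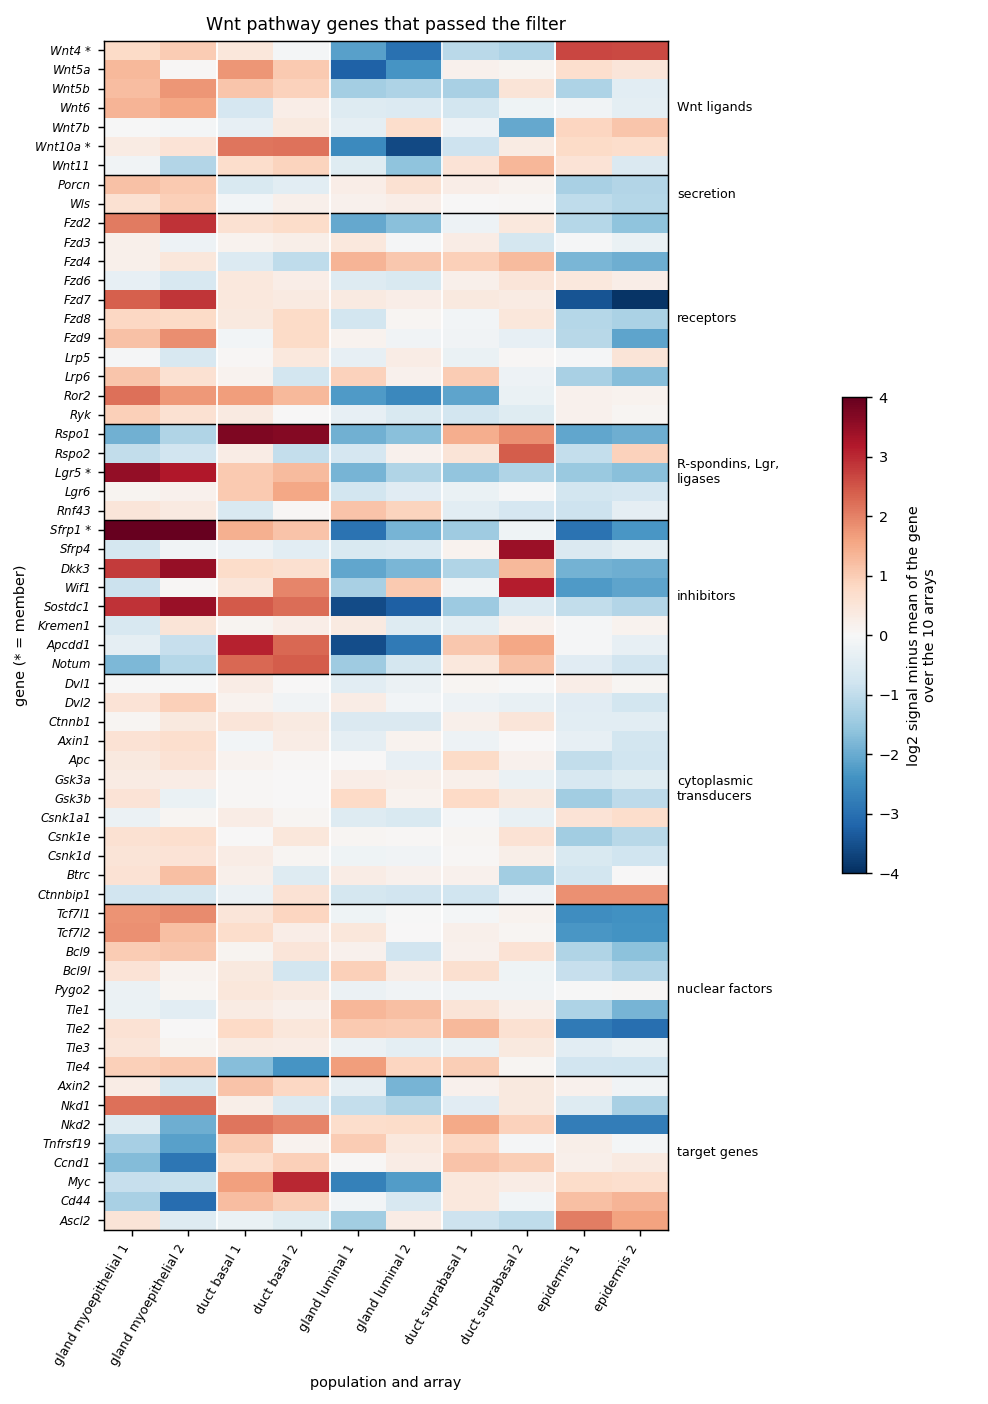
Log2 signal of the 62 Wnt pathway genes that passed the filter, each minus its own mean over the 10 arrays, with genes grouped by role, arrays in columns, members marked by an asterisk and the colour range ending at a difference of 4 either way. Sfrp1, Lgr5, Fzd2, Fzd7, Dkk3 and Nkd1 are darkest red in the myoepithelial columns, Rspo1, Wnt10a, Apcdd1 and Notum in the duct basal columns and Wnt4 in the epidermis columns.

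The outer and inner cells of the secretory coil were compared to see which transcripts mark each layer. Myoepithelial cells had more transcript of all 4 members tested than luminal cells. Of all genes tested 16.5% were higher in this comparison and 14.5% lower. The log2 difference was 6.97 for Sfrp1 (SE 0.46, adjusted p = 2.66e-05, limma), 4.89 for Lgr5 (SE 0.33, adjusted p = 2.67e-05), 3.52 for Wnt10a (SE 0.43, adjusted p = 0.000632) and 3.46 for Wnt4 (SE 0.30, adjusted p = 9.91e-05). On the scale of log2(signal + 12) the Sfrp1 and Wnt4 differences are 126-fold and 11.0-fold. Luminal Lgr5 and Wnt10a lay under the 40th percentile, and with that percentile in their place Lgr5 was at least 24.8-fold and Wnt10a at least 5.36-fold higher in myoepithelial cells. The other Sfrp1 probe sets gave log2 differences of 5.65, 4.39 and 4.07, all past the threshold. The size thus depended strongly on the probe set, and the 126-fold holds for the brightest one alone.

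Beyond the members, myoepithelial cells had more of 20 of the 58 Wnt pathway genes and less of 6. The median log2 difference of the 58 was 0.56, against 0.08 over all genes tested. By role, with the members counted in their lists, 5 of 7 ligands were higher and none was lower, among them Wnt5a (3.46), a ligand of the non-canonical branch, and Wnt6 (2.00). Of 11 receptors 6 were higher, among them Ror2 (4.40), a receptor for Wnt5a, and the Frizzled genes Fzd2 (4.34) and Fzd7 (2.33), and Fzd4 was lower (−0.90). A second Fzd7 probe set gave 0.25. Among genes on the inhibitor list, Sostdc1, which binds Wnt co-receptors and Bmp ligands, differed by 6.58 (SE 0.30, adjusted p = 5.74e-06, limma) and Dkk3 by 5.11. Tcf7l1 (1.93) and Tcf7l2 (1.28), the DNA-binding relatives of Lef1, were higher, although another Tcf7l2 probe set gave 0.32, and Tle1, a co-repressor that binds them, was lower (−1.62). Common target genes went both ways: Nkd1, a feedback inhibitor, was higher (3.28), Ccnd1, a cyclin of the cell cycle, was lower (−2.49), and Axin2 did not pass (0.90, adjusted p = 0.216). Luminal signals of Wnt5a, Fzd2, Ror2, Dkk3 and Nkd1 lay under the 40th percentile, and the bounds were at least 8.98-fold, 15.4-fold, 7.34-fold, 34.7-fold and 4.63-fold higher in myoepithelial cells. All 6 immune markers tested and 2 of 3 pericyte markers were higher in myoepithelial cells, and their part in these differences was not tested.

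The straight duct has a basal and a suprabasal layer, and these were compared next. All 4 members were higher in duct basal than in duct suprabasal cells, as were 7.97% of all genes tested, with 8.39% lower. Lgr5 differed by 2.54 (SE 0.33, adjusted p = 0.00231, limma), Wnt10a by 2.40 (SE 0.43, adjusted p = 0.00805), Sfrp1 by 2.08 (SE 0.46, adjusted p = 0.0179) and Wnt4 by 1.33 (SE 0.30, adjusted p = 0.0201). On the same scale these are 5.27-fold for Wnt10a, 4.24-fold for Sfrp1 and 2.51-fold for Wnt4. Lgr5, under the 40th percentile in suprabasal cells, was at least 3.83-fold higher. The other Sfrp1 probe sets gave 2.03, 1.71 and 1.39, and the last did not pass (adjusted p = 0.261, limma). Among the 58 other pathway genes 8 were higher and 2 lower, with a median of 0.26 against −0.02 over all genes. The higher ones were Sostdc1 (3.33), Ror2 (2.67), the R-spondin gene Rspo1 (2.07), Myc (1.99), Notum (1.56), Lgr6 (1.45), the relative of Lgr5, Apcdd1 (1.39) and Ryk (0.78). Fzd4 (−1.88) and the co-repressor gene Tle4 (−2.58) were lower, with −1.17 and −0.35 by their other probe sets. Ror2 in suprabasal cells lay under the 40th percentile, which makes it at least 3.79-fold higher in basal cells. All 6 endothelial and 3 of 6 fibroblast markers were lower in duct basal cells. Sfrp1 and Wnt10a read higher on duct suprabasal array 2, which had the larger sums of both. Of 6 basal keratinocyte markers, Krt5 (1652 and 5105), Col17a1 (305.7 and 1994), Krt14 and Itga6 also read higher there. Krt15 (215.0 and 63.9) and Trp63 (504.8 and 473.6) read lower. The part of stromal or basal cells in these values was not tested. Fitted with these 2 populations alone, Sfrp1, Wnt10a and Wnt4 lost their calls (adjusted p = 0.0820, 0.0595 and 0.110, limma). Without single duct arrays Sfrp1 (1.46 without duct suprabasal array 1, 1.95 and 2.21 without duct basal array 1 or 2), Wnt10a (2.39 without duct basal array 2) and Wnt4 (1.06 without duct basal array 1) also lost theirs.

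The outer layers of coil and duct share basal keratins and contact with the basement membrane, and the members split between them. Myoepithelial cells had more Sfrp1 (3.28, SE 0.46, adjusted p = 0.00110, limma) and more Lgr5 (2.21, SE 0.33, adjusted p = 0.00157) than duct basal cells, and 12% of all genes tested were higher. They had less Wnt10a (−1.71, SE 0.43, adjusted p = 0.0201), among 12.3% of genes that were lower. Wnt4 did not pass, as given above. The 4 Sfrp1 probe sets gave between 2.23 and 3.58 and all passed. The call for Wnt10a was lost without any one of the 4 arrays of these populations (−1.81 to −1.62) and with a constant of 1 before log2 (−1.76, adjusted p = 0.0975).

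The rest of the pathway split too, with 11 of 58 higher in myoepithelial cells and 11 lower, and medians of 0.16 for the list and 0.02 for all genes. Rspo1 had the largest difference of the list: it read 3.6 and 13.6 in myoepithelial cells, against 770.3 and 744.1 in duct basal cells (−5.27, SE 0.38, adjusted p = 3.21e-05, limma). With the 40th percentile in place of the myoepithelial values, Rspo1 was at least 14.8-fold lower in myoepithelial cells. Thus the transcript of the receptor Lgr5 was higher in myoepithelial cells and that of an R-spondin ligand in duct basal cells. Notum (−3.83) and Apcdd1 (−3.33) were lower, and Dkk3 (2.46) was higher. Fzd7 (2.23), Fzd2 (1.81) and Fzd4 (1.10) were higher, as were Tle4 (3.03), Tcf7l1 (1.17) and Tcf7l2 (1.04). Of 11 target genes on the list 6 were lower, among them Nkd2 (−3.29), Cd44 (−3.26), Myc (−3.26) and Ccnd1 (−3.13), and Nkd1 (2.38) and Lgr5 were higher. Nkd1 lay under the 40th percentile in duct basal cells and was at least 4.23-fold higher in myoepithelial cells. Other probe sets gave 0.98 for Fzd7, 1.09 for Fzd2, 0.59 for Tle4 and as little as 0.03 for Tcf7l2. Myoepithelial array 1, with more Krt18, Krt19 and Aqp5 signal, also read higher than array 2 for Ccnd1 (1010 and 447.8), Cd44 (437.1 and 119.9) and Nkd2 (110.1 and 33.5). Of the markers of other cells, 5 of 6 immune and 2 of 3 Schwann cell markers were higher in myoepithelial cells and 2 of 6 fibroblast markers lower, and their part was not tested.

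Between the inner layers, luminal cells of the coil had less of 3 members than suprabasal cells of the duct. Wnt10a was lower by 2.83 (−2.83, SE 0.43, adjusted p = 0.00466, limma), Wnt4 by 1.42 (−1.42, SE 0.30, adjusted p = 0.0158) and Sfrp1 by 1.61 (−1.61, SE 0.46, adjusted p = 0.0456), among 10.2% of all genes tested that were lower, while 4.95% were higher. Luminal Wnt10a lay under the 40th percentile, and Wnt10a was at least 3.21-fold lower in luminal cells. Lgr5 was near background in both (−0.14, SE 0.33, adjusted p = 0.810). The Sfrp1 call is weak: it was lost without 8 of the 10 arrays in turn (−1.61 to −0.98) and with a constant of 1 (−1.73), quantile normalization (−1.39) or no filter (−1.61), and 1 of its 4 probe sets pointed the other way. In a fit of these 2 populations alone none of the 3 passed (adjusted p between 0.0963 and 0.191, limma), and Wnt4 did not pass without luminal array 2 (−1.01). Of the 58 other genes 10 were lower and 2 higher. The higher ones were Rnf43 (1.56), a ligase that removes Frizzled receptors, and Tle1 (0.92). Apcdd1 (−4.48), Rspo1 (−3.43), Wnt5a (−2.94), Myc (−2.83) and Sostdc1 (−2.42) were among the lower ones, where luminal Rspo1 and Wnt5a lay under the 40th percentile and were at least 3.82-fold and 6.19-fold lower. None of the 6 secretory markers differed past the threshold between these 2 populations. Of the markers of other cells, 5 of 6 fibroblast and all 6 endothelial markers were lower in luminal cells, as were 4 of 6 basal keratinocyte markers. Their part in these values was not tested.

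The duct basal layer was set against the epidermis, into which the duct opens. Duct basal cells had more Sfrp1 (3.93, SE 0.46, adjusted p = 0.000330, limma), Lgr5 (2.74, SE 0.33, adjusted p = 0.000374) and Wnt10a (1.42, SE 0.43, adjusted p = 0.0320), as did 23% of all genes tested. They had less Wnt4 (−2.47, SE 0.30, adjusted p = 0.000394), among 11% that were lower, which is a 5.54-fold difference on this scale. The median of all genes was 0.24 here and 0.01 after quantile normalization, and with it 57.3% of calls were higher in place of 67.7%. The Wnt10a call was lost under that normalization (1.16), with a constant of 1 (1.46), and without any one of the 4 arrays compared (1.40 to 1.45). The other 3 Sfrp1 probe sets gave 2.23, 2.03 and 1.51, and the last did not pass (adjusted p = 0.165, limma). Epidermal Lgr5 lay under the 40th percentile, and Lgr5 was at least 6.64-fold higher in duct basal cells.

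In the rest of the pathway 27 of 58 genes were higher in duct basal cells than in epidermis and 3 were lower, with a median of 0.86. Rspo1 read 770.3 and 744.1 in duct basal cells, against 2.0 and 3.3 in epidermis, under the 40th percentile, and was at least 21.8-fold higher (5.72), and Lgr6 (2.01) was higher together with Lgr5. Of 8 inhibitors 6 were higher and none lower, Sfrp1 included, with Sostdc1 at 3.41, Notum at 2.97 and Apcdd1 at 2.87. Of 11 receptors 5 were higher, with Fzd7 read at 1937 and 1866 in duct basal cells, against 119.8 and 84.5 in epidermis (4.08, SE 0.21, adjusted p = 2.16e-05, limma), although its second probe set gave 0.36. Tle2 (3.53, at least 4.93-fold against epidermal values under the 40th percentile), Tcf7l1 (3.12) and Tcf7l2 (2.83) were higher in duct basal cells, with 1.69 for Tcf7l1 and as little as 0.45 for Tcf7l2 by other probe sets. Lower with Wnt4 were Ascl2 (−2.19, at least 2.45-fold against duct basal values under the 40th percentile), a transcription factor of intestinal stem cells, Ctnnbip1 (−1.64, or −0.62 by another probe set), which blocks beta-catenin from binding Tcf factors, and Tle4 (−1.25). Markers of differentiated epidermis such as Krt10 read 2499 and 10255 in duct basal cells, against 40255 and 41860 in epidermis, while 5 of 6 fibroblast, 3 of 3 pericyte and 3 of 3 Schwann cell markers were higher in duct basal cells. The part of these cells in the differences was not tested.

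**Figure D4:**
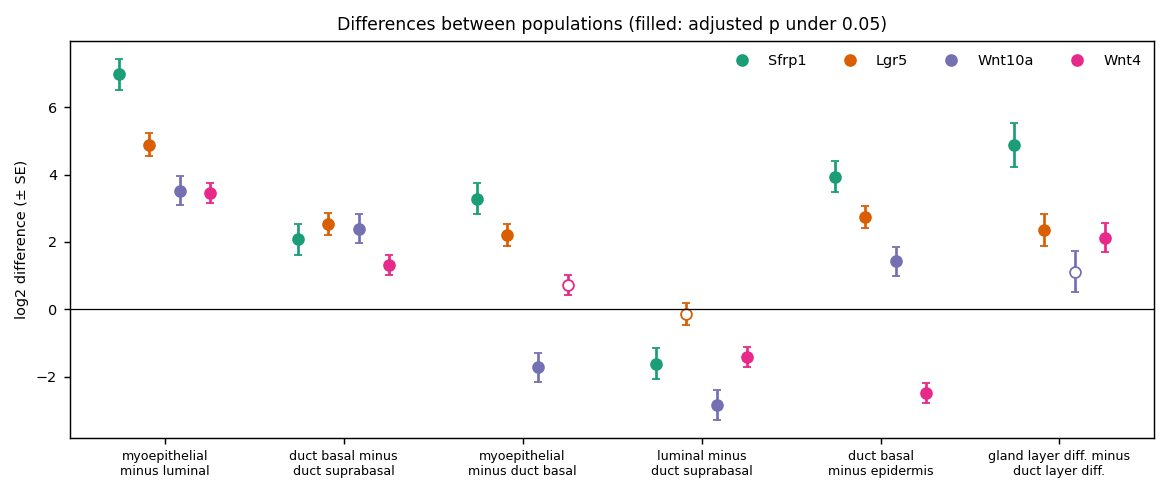
Log2 difference between populations (± SE) for the 4 tested genes in 6 comparisons, with filled points at adjusted p under 0.05 and open points above it. Sizes against populations under the 40th percentile (Lgr5 in luminal and duct suprabasal cells and epidermis, Wnt10a in luminal cells) depend on the constant of 12. All 4 lie above 0 in both layer comparisons, Wnt10a drops below 0 between myoepithelial and duct basal cells and Wnt4 between duct basal cells and epidermis.

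The outer-minus-inner difference was larger in the gland than in the duct for 3 members, tested as the difference between the layer differences. It was 4.89 for Sfrp1 (SE 0.65, adjusted p = 0.00221, limma), 2.35 for Lgr5 (SE 0.47, adjusted p = 0.0119) and 2.13 for Wnt4 (SE 0.43, adjusted p = 0.0120), while 16% of all genes tested passed, 10% higher in this sense and 5.94% lower. For Wnt10a it was 1.12 (SE 0.61, adjusted p = 0.246), which did not pass and ranged from 0.54 to 1.70 without single arrays. For Lgr5 the inner layers were near background in both parts, so that this value largely repeats the difference between the outer layers. Sfrp1 probe set 1416594_at gave 2.99 and missed the threshold (adjusted p = 0.0974), and the other 2 gave 3.63 and 2.36 and passed. The Wnt4 call was lost without duct basal array 2 (1.87) or myoepithelial array 2 (2.01), and that of Lgr5 when myoepithelial array 1 and duct suprabasal array 2 were left out together (2.00, adjusted p = 0.0552).

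The remaining pairs of populations complete the picture for the members. Myoepithelial cells exceeded duct suprabasal cells, where 8.14% of all genes were higher and 9.27% lower, in Sfrp1 (5.36), Lgr5 (4.75) and Wnt4 (2.04). They exceeded epidermis, where 31.6% were higher and 19.9% lower, in Sfrp1 (7.21) and Lgr5 (4.95), and were below it in Wnt4 (−1.76). Duct basal cells exceeded luminal cells in all 4, Wnt10a (5.23), Sfrp1 (3.69), Wnt4 (2.74) and Lgr5 (2.68), with 19.1% of all genes higher and 16.3% lower. The other Sfrp1 probe sets gave 2.21, 1.84 and 0.81 there, and the last did not pass (adjusted p = 0.461, limma). Lgr5 was at least 18.4-fold higher in myoepithelial than in duct suprabasal cells, at least 31.9-fold higher than in epidermis, and at least 5.16-fold higher in duct basal than in luminal cells. Wnt10a was at least 18.2-fold higher in duct basal than in luminal cells. Luminal cells had less Wnt4 (−5.21) and Wnt10a (−3.81, at least 6.61-fold) than epidermis, with 26.1% of all genes higher and 19.2% lower, while Sfrp1 and Lgr5 did not pass. Duct suprabasal cells had more Sfrp1 (1.85) than epidermis, with 29.4% of all genes higher, and less Wnt4 (−3.80), with 16.7% lower. That Sfrp1 value was 1.24 after quantile normalization, between 0.0036 and 0.52 by the other 3 probe sets, and 1.54 without epidermis array 1, none of which passed.

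Among the members, log2 signals over the 10 arrays were most alike for Sfrp1 and Lgr5 (Pearson r = 0.971), followed by Wnt10a and Wnt4 (0.702), and least alike for Sfrp1 and Wnt4 (0.171). The arrays of a population share their source, so these values describe patterns over 5 populations. Of all other genes tested with a mean above the median, the closest to Sfrp1 were Marcksl1 (0.986), Fst (0.984), which encodes the activin binder follistatin, and the actin regulator gene Fhod3 (0.981). Closest to Lgr5 were Fst (0.993), Dlk2 (0.985) and Marcksl1 (0.984). Fst had a mean signal of 3306 in myoepithelial cells, 455 in duct basal cells and between 28.9 and 65.4 in the other 3 populations. The genes most like Wnt10a were Plek2 (0.978), Cluap1 (0.967) and Mpp1 (0.966), with Plek2 at 2074 in duct basal cells, 114 in luminal cells and 1156 in epidermis. The genes most like Wnt4 were Tmem165 (0.97), Degs1 (0.964), a desaturase of ceramide synthesis, and Nt5c3b (0.962), all 3 highest in epidermis.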

How the data were processed

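Total RNA of sorted paw pad cells was extracted with Trizol and turned into biotin-labelled cRNA, per the labels' protocols. The deposited unit is MAS5 signal intensity, per the submitters' processing notes; its version and a genome build are not given in the sources used here. The authors' intensity values are linear, from 0.1 to 72213, with a trimmed mean of 500 on every array, and no detection calls were used. Of 22690 probe sets 64 controls were left out; 20380 had 1 symbol in the platform annotation, 691 several and 1555 none. A gene was its probe set with the highest mean, and log2(signal + 12) was used, 12 being the 20th percentile of all values. Genes above the 40th percentile of an array on at least 2 of 10 arrays were tested. They entered 1 linear model of all 10 arrays in limma 3.58.1 (R 4.3.3), with moderated variances that follow the mean, 5 residual degrees of freedom and Benjamini-Hochberg adjustment at 0.05. Differences are the population named first minus the other. P-values measure only the spread between arrays, and arrays of a population enter every comparison it is part of. The labels call the arrays biological replicates but give no number of animals, and the technical share of this spread is unknown. Where a population lay under the 40th percentile on both arrays, a fold is a bound: the geometric mean signal of the brighter population over that of the 40th percentiles of the dimmer population's arrays, with no constant added. Such a bound can exceed the fold on the log2(signal + 12) scale, as for Lgr5 in myoepithelial cells over epidermis (31.9 against 30.8). The fit was tested on simulated data with independent noise for each value, which holds no effects shared across an array and no mixed cells.

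The members, the 8 Wnt role lists (ligands, secretion, receptors, R-spondin and Lgr genes, inhibitors, transducers, nuclear factors and targets) and the marker lists were chosen with earlier results of these data known. Other Wnt genes are named where they passed the threshold with at least 2-fold, without overlap and with a mean above the median of all genes tested, up to 4 per list and direction, or to describe their list. Likeness is the Pearson correlation of log2 signal, 3 genes per member. Alternatives were constants of 1 and 47, quantile normalization, no filter or one at the 60th percentile, each probe set, a replicate block, a fit of the compared populations alone, each array left out in turn, and myoepithelial array 1 and duct suprabasal array 2 left out together.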

Additional observations from a re-analysis of the deposited data

Results flagged for a closer look

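For 19 Wnt pathway genes the outer-minus-inner difference of the gland and that of the duct were not the same when the difference between them was tested (limma, log2 scale, gland minus duct). Of the members these were Sfrp1 (4.89), Lgr5 (2.35) and Wnt4 (2.13). The other genes with a larger difference in the gland were Dkk3 (4.46), Fzd2 (3.78), Nkd1 (3.41), Sostdc1 (3.24), Tle4 (2.30), Fzd7 (2.29), Wnt5a (2.19), Porcn (1.40), which lipid-modifies Wnt ligands, and Tcf7l1 (1.30). The genes with a smaller or opposite difference in the gland were Tle1 (−1.53), Rspo1 (−1.84), Notum (−1.98), Ccnd1 (−2.24), Tnfrsf19 (−2.65), Cd44 (−2.74) and Nkd2 (−2.81). The share of all genes called in this test was 16%. Other probe sets pointed the other way for Fzd7 (−0.14), Tle4 (−0.14) and Tnfrsf19 (0.59), and gave smaller values for Wnt5a (0.94), Fzd2 (2.25) and Cd44 (−1.49). Of the markers of other cells, 4 of 6 immune and 2 of 6 endothelial markers were higher in the same sense, and their part was not tested.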

How the results depend on the processing

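The myoepithelial-over-luminal differences of all 4 members kept direction and call under every alternative run. Other results moved as follows, and the causes were not tested. In fits of the compared populations alone, genes called fell to 242 between the duct layers, 36 between the inner layers and 393 between myoepithelial and duct suprabasal cells, against 1525, 1414 and 1623. There the duct layer differences of Sfrp1 (2.08), Wnt10a (2.40) and Wnt4 (1.33) and the inner layer differences of Sfrp1 (−1.61), Wnt10a (−2.83) and Wnt4 (−1.42) lost their calls. Quantile normalization turned the sign of uncalled Lgr5 differences (duct suprabasal minus epidermis −0.30, luminal minus duct suprabasal 0.16, luminal minus epidermis −0.14) and of Sfrp1 between luminal cells and epidermis (−0.15). It ended the calls of Sfrp1 for duct suprabasal minus epidermis (1.24) and luminal minus duct suprabasal (−1.39) and of Wnt10a for duct basal minus epidermis (1.16), and called Wnt10a for duct suprabasal minus epidermis (−1.47). With it the share of calls that were higher was 48.6% for myoepithelial minus epidermis, 48% for duct suprabasal minus epidermis and 51% for the difference of layer differences, against 61.4%, 63.8% and 62.8%. A constant of 1 ended the calls of Sfrp1 for luminal minus duct suprabasal (−1.73) and of Wnt10a for duct basal minus epidermis (1.46) and myoepithelial minus duct basal (−1.76), and no filter that of Sfrp1 (−1.61). By probe set, Sfrp1 lost calls with 1416594_at for duct basal minus duct suprabasal (1.39), epidermis (1.51) and luminal cells (0.81), duct suprabasal minus epidermis (0.12) and the layer difference (2.99), and turned sign for luminal minus duct suprabasal (0.59). Duct suprabasal minus epidermis was 0.52 with 1438620_x_at and 0.0036 with 1460187_at, luminal minus duct suprabasal was −0.13, −0.19 and −1.61 with 1438620_x_at, 1460187_at and 1448395_at, and luminal minus epidermis was −0.18 with 1460187_at. Other probe sets turned Csnk1d for myoepithelial minus epidermis (−0.30 and −0.56), Tcf7l2 for luminal minus epidermis (−0.36) and Tle4 in the layer difference (−0.14). When 2 arrays (myoepithelial 1 and duct suprabasal 2) were dropped at once, Lgr5 was 0.053 for luminal minus duct suprabasal and 2.00 in the layer difference, Sfrp1 was 1.22 for duct suprabasal minus epidermis and −0.98 for luminal minus duct suprabasal, and Wnt10a was −1.56, now called, for duct suprabasal minus epidermis.

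Without each array in turn, genes called ranged from 449 to 1943 (duct layers), 1713 to 3737 (duct basal minus epidermis), 1945 to 3848 (duct basal minus luminal), 2833 to 4205 (duct suprabasal minus epidermis), 315 to 1996 (inner layers), 1136 to 2835 (outer layers), 606 to 1966 (myoepithelial minus duct suprabasal), 1399 to 3458 (gland layers) and 632 to 1989 (layer difference). Lgr5 ranged from −0.47 to 0.19 for luminal minus duct suprabasal and −0.27 to 0.39 for luminal minus epidermis. Sfrp1 ranged from 1.46 to 2.71 for duct basal minus duct suprabasal, 1.22 to 2.48 for duct suprabasal minus epidermis, −2.24 to −0.98 for luminal minus duct suprabasal and −0.32 to 0.80 for luminal minus epidermis. Wnt10a ranged from 1.82 to 2.98 between the duct layers, 1.40 to 1.45 for duct basal minus epidermis, −1.56 to −0.39 for duct suprabasal minus epidermis and −1.81 to −1.62 for myoepithelial minus duct basal. Wnt4 ranged from 1.06 to 1.59 between the duct layers, −1.83 to −1.01 between the inner layers and 1.72 to 2.54 in the layer difference.

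The labels share replicate numbers but describe no pairing, and same-numbered arrays had correlations of their deviations between 0.0257 and 0.357 over the 10 pairs of populations. With the number as a replicate block, calls were 2041 between the duct layers, 3289 between the gland layers, 1884 between the inner layers and 1958 for the layer difference, and no member lost or gained a call. The 2 arrays per population limit the precision, and levels below the 40th percentile, such as all of Lef1, cannot be ordered.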

Other observations

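Signals of some Wnt pathway inhibitors differed widely between the duct suprabasal arrays. Sfrp4, a secreted relative of Sfrp1, read 97.9 and 1062 there, and at most 79.3 on the 8 other arrays. Wif1, a secreted Wnt binder, read 56.2 and 645.1 on these arrays, and between 3.7 and 279.5 elsewhere. The array with the higher values was also the one with the higher fibroblast and endothelial marker sums, and this was not tested further. Beta-catenin itself (Ctnnb1) read between 8696 and 18132 on all 10 arrays. Among target genes, Axin2 reached its highest mean, 192 ± 32.2 (SD, n = 2), in duct basal cells, against 82.0 ± 43.8 in myoepithelial cells, a difference that did not pass (−1.19, SE 0.51, adjusted p = 0.127 for myoepithelial minus duct basal cells, limma).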
